A study of Homo sapiens with 15 samples.

Results

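The replication-dependent histone genes were taken here as the protein-coding genes of GENCODE 29 whose symbol begins with HIST1H, HIST2H, HIST3H or HIST4H. The rule found 71 genes among 58735 listed genes, of which 19951 were protein-coding, and it left out 19 pseudogenes with such symbols. The rule uses gene symbols and gene types. They comprise 6 genes of linker histone H1, 17 of H2A, 18 of H2B, 15 of H3 and 15 of H4. The study profiled RNA of HEK293T, a line derived from human embryonic kidney cells, in 5 groups of 3 wells from six-well plates. Each group was a line set up by limiting dilution after transduction with lentiCRISPRv2, which carries Cas9 and a guide, and selection with puromycin for 2 weeks, and all groups were kept in DMEM. The Non-target control, labelled WT, carried a guide with no target, and the clonal knockout (CKO) lines, labelled as knockouts of C9orf89, of MAGI2, of MLPH or of RHBDD2, bear the name of the gene followed by CKO. The 3 wells of a group carry numbers 1 to 3 in the labels and a single clone name, so their spread is that between wells and not between independent clones, and a difference between groups cannot be told apart from a difference between clones.

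Of the targeted genes, C9orf89 (now CARD19) was at 5.70, 7.71 and 6.27 FPKM in Non-target and at 4.34, 4.27 and 4.34 in C9orf89-CKO. RHBDD2 was at 27.4, 38.1 and 34.9 FPKM in Non-target and at 11.2, 13.5 and 12.4 in RHBDD2-CKO, but also at 11.7, 13.8 and 16 in MAGI2-CKO. MAGI2 lay between 0.102 and 0.123 FPKM in Non-target and between 0.0523 and 0.0899 in MAGI2-CKO, and MLPH was listed at 0 in every library, so their RNA does not check those labels. As a check of the cell line, 3 of the HEK293T markers, NEFM and NEFL, which encode neurofilaments, and VIM, which encodes vimentin, stood in Non-target at 27.2 ± 9.71, 18.8 ± 1.91 and 45.2 ± 4.51 FPKM (SD, n = 3). In MAGI2-CKO the 3 were at 0.0274 ± 0.0378, 24.7 ± 1.07 and 69.2 ± 6.25 FPKM, so NEFM was lower there and the others were not. In RHBDD2-CKO they were at 1.34 ± 0.482, 0.984 ± 0.131 and 47.0 ± 3.91, with both neurofilament genes lower. C9orf89-CKO had 19.3 ± 8.40, 24 ± 1.33 and 68.8 ± 8.29, and MLPH-CKO 22.4 ± 8.06, 34.8 ± 0.813 and 82.2 ± 9.54. These 3 were picked by none of the naming rules given below and do not stand for the other markers of the line. Markers of the U937 leukaemia line, used elsewhere in the study as a partner in co-culture, summed to between 0.179 and 0.629 FPKM, and none of the 8 reached 0.5 FPKM in 3 libraries. Markers of UE7T-9, the stromal line of the study, summed to between 3.22 and 6.04 FPKM, and of those 8 the collagen genes COL1A1 and COL3A1 reached that level.

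Histones H2A, H2B, H3 and H4 form the core around which DNA is wound, and H1 binds the linker between cores. Dividing cells make most of this protein in S phase from gene clusters whose transcription needs the coactivator NPAT, and the mRNAs end in a conserved stem-loop, cut after it with the help of the U7 snRNP and bound by SLBP, in place of a poly(A) tail. The RNA is degraded when DNA synthesis stops, with the exonuclease ERI1 taking part. Some of these genes are also known to yield polyadenylated transcripts that run past the stem-loop.

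The stem-loop sets these RNAs apart from other mRNAs, so it was looked up in the GENCODE gene models. A site was found inside the annotated exons of 32 of the 71 genes, in 6 forms, and the other 39 gene models ended before one or held none. The form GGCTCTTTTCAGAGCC occurred in 17 genes, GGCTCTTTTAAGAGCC in 5, and the H4-type forms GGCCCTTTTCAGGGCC and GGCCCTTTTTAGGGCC in 5 and 3. HIST1H3E and HIST1H2AG each had a form of their own. The sites of 8 genes that the comparisons below turn on are given here 5′ to 3′ as DNA (GRCh38), with the stem-loop in capitals and its coordinates in brackets.
HIST1H4I (chr6:27139654-27139669, plus strand): taaaaaGGCCCTTTTTAGGGCCcctaagct
HIST3H2A (chr1:228457369-228457384, minus strand): cataaaGGCTCTTTTCAGAGCCacctacta
HIST1H2BD (chr6:26158587-26158602, plus strand): cccaaaGGCTCTTTTAAGAGCCacgcatgt
HIST1H3H (chr6:27810516-27810531, plus strand): cccaaaGGCTCTTTTCAGAGCCacccacat
HIST1H2AC (chr6:26124669-26124684, plus strand): cccaaaGGCTCTTTTCAGAGCCcccctacc
HIST2H2BE (chr1:149886188-149886203, minus strand): tccaaaGGCTCTTTTCAGAGCCacccacct
HIST1H3E (chr6:26225596-26225611, plus strand): tccaaaGGCTCTTCTCAGAGCCaaccactt
HIST1H2AG (chr6:27133515-27133530, plus strand): accaacGGCTCTTTTCAGGGCCacccacgt
The capitals are 16 bases long in each of the 8 genes.

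Levels are fragments per exon length, scaled between libraries by depth (FPKM), so genes can be compared per length. Each library held between 15517856 and 19489918 fragments counted on genes. The 71 histone genes together took between 0.00671% and 0.0259% of them, which made 37348 fragments over all 15 libraries. No fragment was seen for 11 genes, 60 had at least 1 in some library and 30 had some in every library. A mean of 1 FPKM was reached by 19 genes and a mean of 10 FPKM by 4, namely HIST1H2BK (99.4 FPKM, an H2B), HIST1H1C (37.2, a linker histone), HIST3H2A (30.6, an H2A) and HIST1H4I (10.2, an H4). Next came HIST1H2BD (3.56), HIST2H2AC (3.53), HIST1H2BJ (2.82) and HIST1H2AH (2.12). No H3 gene was among these 8, and the highest, HIST1H3H, had a mean of 1.58 FPKM. This order depends on the annotated lengths. By fragments over all libraries, HIST1H3E (910 on 2679 bases) stood above HIST1H2BD (833 on 871 bases). The most abundant 4 carried between 66.5% and 87.3% of the summed FPKM of the genes in a library.

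**Figure D1:**
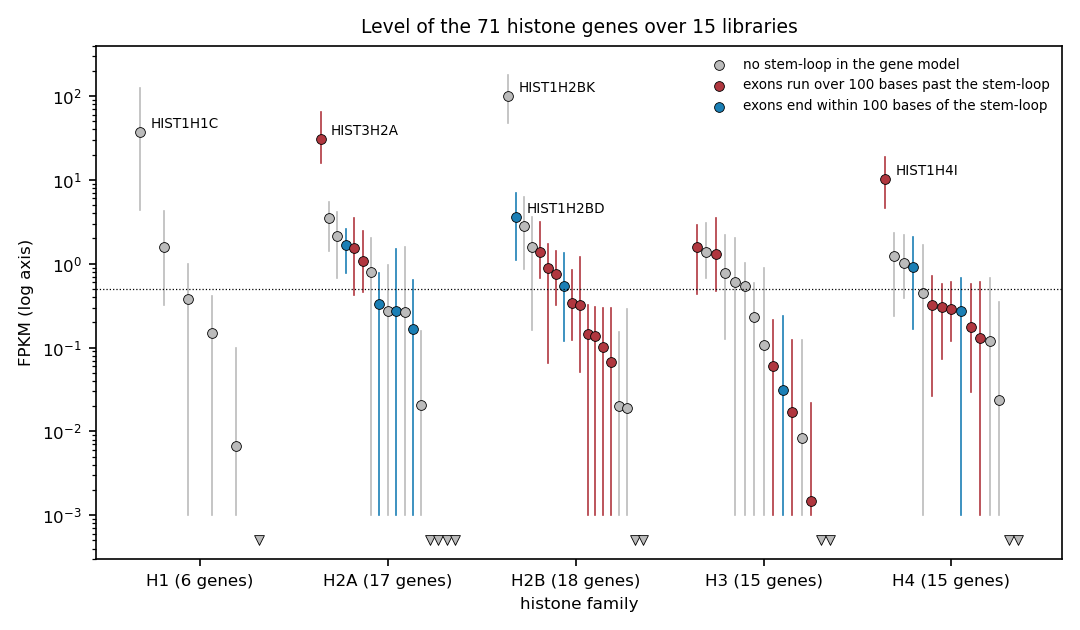
Mean FPKM of each of the 71 histone genes over the 15 libraries (log axis), by family, with lines from the lowest to the highest library, triangles for genes at 0 in every library and colours for the class of gene model. The 4 genes with means of 10.2 FPKM or more stand well above the rest, and the dotted line marks 0.5 FPKM, the level used to choose genes for testing.

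The methods speak of an mRNA library without saying whether poly(A) RNA was selected, and the strand setting is not given in the sources used here. Ends of the gene models differ, and so do the levels. In 23 genes the exons ran over 100 bases past the stem-loop, in 9 they ended within 100 bases of it, and in 39 no stem-loop lay in the model. These classes were read from the transcripts that hold the stem-loop. HIST1H2BD was so placed among the 9, although its gene is annotated to chr6:26171349, far past its stem-loop (chr6:26158587-26158602). The first class holds HIST3H2A, HIST1H4I, HIST1H3H, HIST1H2AC, HIST2H2BE, HIST1H3E and HIST1H2AG, and 14 of its 23 models had the letters AATAAA in their last 60 bases. All 11 genes at 0 belonged to the class with no stem-loop, as did HIST1H2BK and HIST1H1C, whose transcripts are annotated with 381 and 642 bases. Some of the 11 share most of their 100-base windows with other genes, so their 0 need not mean absence of RNA. These are HIST1H3D (100%) and HIST1H2AD (97.6%) with AL031777.3, HIST2H3PS2 (100%) with AC239798.4 and HIST1H2AJ (80.9%) with HIST1H2AI. The rest of the 11 share none. Whether the fragments came from tailed or untailed RNA cannot be told apart in these values.

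Summed over the 71 genes, Non-target stood at 156, 177 and 183 FPKM. C9orf89-CKO lay at 103, 101 and 137, and MAGI2-CKO at 248, 255 and 269.5. MLPH-CKO gave 166, 159 and 137, and RHBDD2-CKO 388, 374 and 391. All wells of RHBDD2-CKO and of MAGI2-CKO were above every Non-target well, all wells of C9orf89-CKO were below, and MLPH-CKO overlapped Non-target. As ratios of means to the Non-target mean of 172 ± 14.2 FPKM, these are 2.23 for RHBDD2-CKO, 1.5 for MAGI2-CKO, 0.660 for C9orf89-CKO and 0.895 for MLPH-CKO. Without HIST1H2BK the mean of MLPH-CKO lay above that of Non-target. With 3 wells against 3 an exact permutation test cannot go below p = 0.1, so no p-value is given for sums. In bulk RNA, fewer cells in S phase and less histone RNA per cell cannot be told apart.

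Most of this came from the 4 abundant genes. Without them, the other 67 genes summed to 37.6 ± 5.25 FPKM in Non-target and 50 ± 2.59 in RHBDD2-CKO, with 41.3 ± 2.15 for MAGI2-CKO, 33.4 ± 4.36 for MLPH-CKO and 31.5 ± 12.4 for C9orf89-CKO (SD, n = 3 wells each). RHBDD2-CKO alone was then above every Non-target well, by a ratio of 1.33, and the other 3 clones overlapped it. By family, the H1 sum in RHBDD2-CKO was 6.95 times the Non-target mean, H3 2.07, H2B 1.91, H4 1.60 and H2A 1.13. HIST1H1C made up 118.7 of the 119.9 FPKM of H1 there, and the 3 tested H1 genes had a median log2 difference of -0.65. HIST1H1E had a mean of 1.03 FPKM there against 2.76 in Non-target, and HIST1H1B 0.0879 against 0.184. In MAGI2-CKO the family furthest from Non-target was H2A, at 2.08 times, and H4 stood at 1.10. HIST3H2A made up 59.1 of the 72.1 FPKM of H2A in MAGI2-CKO, and 22.9 of 34.6 in Non-target. Of 8 tested H2A genes 2 were called in MAGI2-CKO, or 25% beside 36.1% of all genes, with a median log2 difference of 0.35. In C9orf89-CKO the ratios ran from 0.491 for H1 to 1.00 for H3. MLPH-CKO, whose total overlapped Non-target, was above every Non-target well for H1 (1.41) and below every one for H2B (0.716) and H4 (0.810), and it overlapped for H2A (1.19) and H3 (0.951). In MLPH-CKO, HIST1H2BK made up 62.7 of the 71.4 FPKM of H2B and HIST1H4I 6.49 of the 12.1 of H4.

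**Figure D2:**
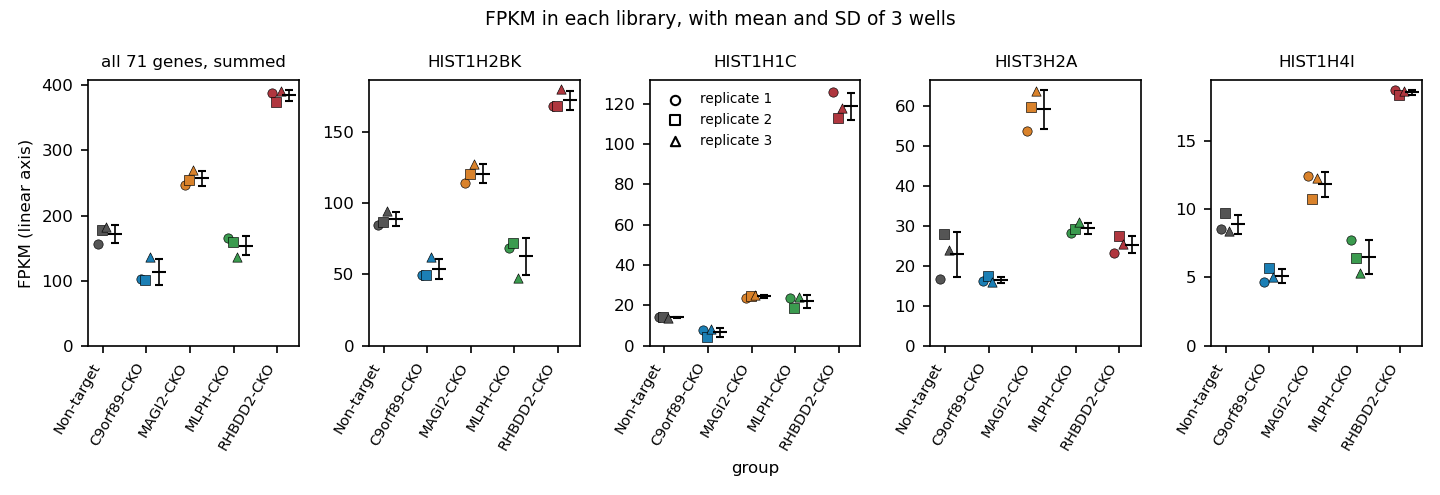
FPKM in each well of the 5 groups for the sum of the 71 histone genes and for HIST1H2BK, HIST1H1C, HIST3H2A and HIST1H4I, with the mean ± SD of 3 wells. HIST1H1C lies at 113 to 126 FPKM in RHBDD2-CKO against 14 to 14.1 in Non-target, while HIST3H2A is highest in MAGI2-CKO.

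For tests on single genes, log2(FPKM + 0.1) was fitted with limma over all 15 libraries, and p-values were adjusted by Benjamini-Hochberg over the 16175 genes that reached 0.5 FPKM in at least 3 libraries. Of the 71 histone genes, 32 passed that filter, and 28 of the other 39 had fragments in some library. The median tested histone gene had 14.5 fragments per library and a mean of 1.27 FPKM, against 4.29 FPKM over all genes tested, and the median standard error of a log2 difference was 0.44 against 0.13. A gene without a call is not shown to be alike in the groups. Since a gene that passed only through 1 group had to be higher there, the counts describe the 32 and not the 71.

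At an adjusted p under 0.05, 6 of the 32 fell and 0 rose in C9orf89-CKO against Non-target, where 26.0% of all genes tested were called (12.9% higher, 13.1% lower). In MAGI2-CKO 10 rose and 0 fell, beside 36.1% of all genes called (17.0% higher, 19.1% lower). Without MAGI2-CKO well 3 the calls there were 5, beside 30.8% of all genes, and without Non-target well 3 they were 6, beside 29.5%. In MLPH-CKO 1 rose and 4 fell, beside 30.1% (14.5% higher, 15.5% lower), and the calls were 3 without Non-target well 3 or MLPH-CKO well 3, beside 24% of all genes in each of these fits. With only the 6 libraries of MLPH-CKO and Non-target, the rise of HIST1H1C was the 1 call left and the 4 falls were lost, beside 22.1% of all genes. In RHBDD2-CKO 10 rose and 2 fell, beside 34.1% (17.4% higher, 16.7% lower). HIST1H2BN, among the 10 of RHBDD2-CKO, reached 0.5 FPKM in the 3 RHBDD2-CKO wells and in no other library, and HIST1H1B, among the 10 of MAGI2-CKO, in the 3 MAGI2-CKO wells and 1 well of MLPH-CKO. These 2 genes thus passed the filter on low values through the clone where they were high, and add nothing to the counts as support. The shares of the 32 that were called, 18.8%, 31.3%, 15.6% and 37.5% in that order, were thus below or near those of all genes, and the 2 directions were more unequal than among all genes. The median log2 difference of the 32 was -0.34 for C9orf89-CKO, 0.27 for MAGI2-CKO, 0.56 for RHBDD2-CKO and -0.18 for MLPH-CKO, against medians near 0 over all genes tested. All 4 comparisons share the same 3 Non-target wells. In RHBDD2-CKO every well was above every Non-target well for 12 of the 32 and below for 2, where 22.7% and 21.5% of all genes tested did the same. The counts above and below were 11 and 2 in MAGI2-CKO, beside 22.4% and 24.4% of all genes. They were 1 and 7 in C9orf89-CKO (19.4% and 20.4%) and 3 and 4 in MLPH-CKO (20.1% and 21.0%).

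**Figure D3:**
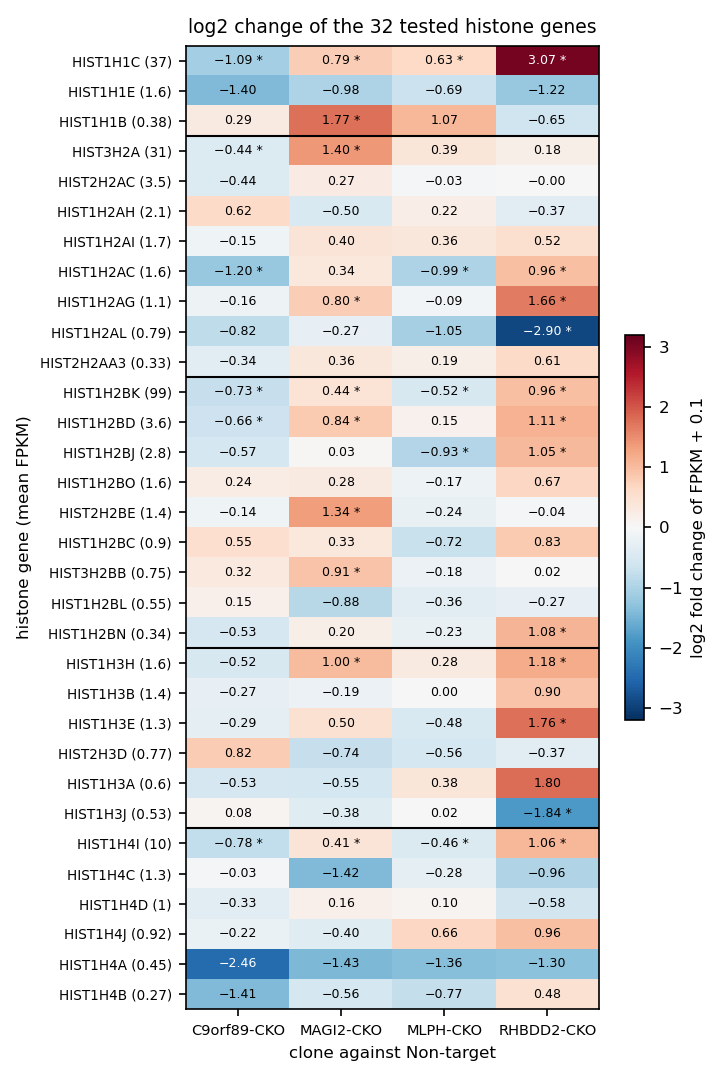
Log2 difference in FPKM + 0.1 between each CKO clone and Non-target for the 32 tested histone genes, with a star where the adjusted p (limma) was under 0.05. The column of RHBDD2-CKO holds 10 starred rises and 2 starred falls, and that of C9orf89-CKO 6 starred falls.

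Some calls went opposite ways between clones. Of the 16 genes called in at least 1 clone (61.5% of all genes tested were), 7 were called higher in some clone and lower in another, as were 7.28% of all genes tested. HIST1H1C, HIST1H2BK and HIST1H4I were called in all 4 clones, and 0 genes were called in the same direction in all 4, beside 6.65% of all genes tested. Over the 5 groups, 16 of the 32 differed by limma's F test, where 61.0% of all genes did. The highest mean among the 5 groups was in RHBDD2-CKO for 18 of the 32, in MAGI2-CKO and in Non-target for 5 each, in C9orf89-CKO for 3 and in MLPH-CKO for 1. Over all genes tested it was in RHBDD2-CKO for 26%, in MAGI2-CKO for 22.3%, in Non-target for 22.2%, in MLPH-CKO for 15.5% and in C9orf89-CKO for 13.9%. One of the 18 is HIST1H2BN, which passed the filter through RHBDD2-CKO alone. Between clones, 11 were higher in MAGI2-CKO than in C9orf89-CKO and 0 lower (22.5% of all genes called, 9.76% higher and 12.7% lower), and 13 were higher and 1 lower in RHBDD2-CKO than in C9orf89-CKO (29.3%, 14.3% and 15%). Against MLPH-CKO, RHBDD2-CKO was higher in 10 and lower in 2 (37.0%, 18.7% and 18.4%). MLPH-CKO was lower than MAGI2-CKO in 10 and higher in 0 (21.2% of all genes called, 9.40% lower and 11.8% higher). RHBDD2-CKO and MAGI2-CKO differed in both directions, 9 higher in the former and 6 lower (41.6%, 21.5% and 20%), whereas MLPH-CKO and C9orf89-CKO differed in 3, all higher in MLPH-CKO (14.2%, with 6.63% higher and 7.61% lower). HIST1H1B, which passed the filter mainly through MAGI2-CKO, is among the 11 above C9orf89-CKO and the 6 lower in RHBDD2-CKO than in MAGI2-CKO. HIST1H2BN is among the genes higher in RHBDD2-CKO than in each other clone. Neither gene adds support to these counts.

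The linker histones bind DNA between nucleosomes and compact the fibre. HIST1H1C (H1.2) was at 14.1, 14.1 and 14 FPKM in Non-target, at 7.64, 4.32 and 8.41 in C9orf89-CKO, and at 23.6, 24.7 and 25.1 in MAGI2-CKO. MLPH-CKO gave 23.5, 18.5 and 24, and RHBDD2-CKO 126, 113 and 118. No well of any clone overlapped Non-target, and the wells of RHBDD2-CKO were far above all others. Against Non-target it rose by 3.07 ± 0.19 (SE) on the log2 scale in RHBDD2-CKO (limma, adjusted p = 1.33e-07), a ratio of means of 8.44. It also rose by 0.79 ± 0.19 in MAGI2-CKO (limma, adjusted p = 0.00469) and by 0.63 ± 0.19 in MLPH-CKO (limma, adjusted p = 0.0206), and it fell by 1.09 ± 0.19 in C9orf89-CKO (limma, adjusted p = 0.000860). The call in MLPH-CKO was lost when MLPH-CKO well 1 or 3, or Non-target well 2 or 3, was left out, with an adjusted p of up to 0.0738 (limma). In the order of means, MAGI2-CKO and MLPH-CKO were neighbours that did not differ past the threshold (limma, adjusted p = 0.610), and the other 3 neighbouring pairs did.

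The other H1 genes tested were HIST1H1B and HIST1H1E. HIST1H1B (H1.5), named after its values were seen, had 1 to 3 fragments per well in Non-target and 9 to 13 in MAGI2-CKO. It passed the filter through the 3 MAGI2-CKO wells and 1 well of MLPH-CKO, so its fitted difference of 1.77 ± 0.49 in MAGI2-CKO is given as a description. HIST1H1E was called in no clone.

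H2A pairs with H2B in the outer part of the nucleosome core. HIST3H2A, from the small HIST3 cluster on chromosome 1, was at 16.7, 27.9 and 24 FPKM in Non-target and at 53.9, 59.8 and 63.7 in MAGI2-CKO. C9orf89-CKO lay at 16.1, 17.4 and 15.9, MLPH-CKO at 28.1, 29.1 and 31.0, and RHBDD2-CKO at 23.1, 27.5 and 25.4. MAGI2-CKO stood above all other wells, and the Non-target wells differed among themselves more than those of most clones. It rose by 1.40 ± 0.14 in MAGI2-CKO (limma, adjusted p = 1.02e-05). The difference of -0.44 ± 0.14 in C9orf89-CKO passed the threshold (limma, adjusted p = 0.0385) although its wells overlapped Non-target, and it was lost when any of 8 libraries was left out, with an adjusted p of up to 0.163 (limma), namely the 3 wells of C9orf89-CKO, Non-target wells 2 and 3, MAGI2-CKO well 2, MLPH-CKO well 2 and RHBDD2-CKO well 3. In RHBDD2-CKO, where HIST1H1C rose most, HIST3H2A differed from Non-target by 0.18 ± 0.14 (limma, adjusted p = 0.376).

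HIST1H2AC lay at 1.12, 1.94 and 1.5 FPKM in Non-target, 0.581, 0.699 and 0.504 in C9orf89-CKO and 0.919, 0.859 and 0.425 in MLPH-CKO. In RHBDD2-CKO it was at 3.50, 3.04 and 2.47, and in MAGI2-CKO at 2.04, 1.79 and 1.90. Both lower clones were below every Non-target well and RHBDD2-CKO above, whereas MAGI2-CKO overlapped Non-target. It fell by 1.20 ± 0.25 in C9orf89-CKO (limma, adjusted p = 0.00332) and by 0.99 ± 0.25 in MLPH-CKO (limma, adjusted p = 0.00914), and rose by 0.96 ± 0.25 in RHBDD2-CKO (limma, adjusted p = 0.00978). The fall in MLPH-CKO was lost when only the 6 libraries of both groups were fitted. HIST1H2AG rose by 1.66 ± 0.22 in RHBDD2-CKO (limma, adjusted p = 0.000105), from 0.941, 0.574 and 0.507 FPKM in Non-target to 2.45, 1.94 and 2.49. In MAGI2-CKO it was at 1.12, 1.01 and 1.55 FPKM and rose by 0.80 ± 0.22 (limma, adjusted p = 0.0133), which was lost without MAGI2-CKO well 3 or Non-target well 3 (adjusted p of up to 0.0629, limma).

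Other H2A genes moved less or were too sparse. HIST2H2AC and HIST1H2AH, with means of 3.53 and 2.12 FPKM, were called in no clone, and HIST2H2AC ranged from 1.40 to 5.48 FPKM within MLPH-CKO alone. HIST1H2AL, named after its values were seen, fell by 2.90 ± 0.74 in RHBDD2-CKO (limma, adjusted p = 0.00904), on 5 to 14 fragments per well in Non-target and 0 to 3 in RHBDD2-CKO. That gene overlaps HIST1H2BN on the same strand, a gene also named after its values were seen. HIST1H2BN passed the filter through the RHBDD2-CKO wells alone, and its fitted difference there, 1.08 ± 0.26, is given as a description. Whether the counting divided the reads of the pair was not tested.

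H2B is a partner of H2A and carries a lysine that is ubiquitinated during transcription. HIST1H2BK, the most abundant of the 71 genes, was at 84.7, 87.0 and 94.1 FPKM in Non-target and at 168, 168 and 179 in RHBDD2-CKO. MAGI2-CKO gave 114, 120.2 and 127, MLPH-CKO 68.4, 71.9 and 47.8, and C9orf89-CKO 49.8, 49.3 and 61.9. Every clone was clear of Non-target, with RHBDD2-CKO and MAGI2-CKO above it and the other 2 below. It rose by 0.96 ± 0.13 in RHBDD2-CKO (limma, adjusted p = 0.000148) and by 0.44 ± 0.13 in MAGI2-CKO (limma, adjusted p = 0.0197), and it fell by 0.73 ± 0.13 in C9orf89-CKO (limma, adjusted p = 0.00148) and by 0.52 ± 0.13 in MLPH-CKO (limma, adjusted p = 0.0102). The rise in MAGI2-CKO was lost without MAGI2-CKO well 2 or 3 or Non-target well 1 or 2 (adjusted p of up to 0.0659, limma), and the fall in MLPH-CKO was lost when only the 6 libraries of both groups were fitted (adjusted p = 0.0739, limma). Only MLPH-CKO and C9orf89-CKO, neighbours at the bottom of the order, did not differ past the threshold (limma, adjusted p = 0.347). The model of HIST1H2BK shares 28.4% of its 100-base windows with the gene H2BFS, so part of its reads is uncertain.

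HIST1H2BD was at 2.50, 2.52 and 2.81 FPKM in Non-target, 5.80, 4.68 and 3.94 in MAGI2-CKO, and 7.02, 4.88 and 5.50 in RHBDD2-CKO. In C9orf89-CKO it was at 1.11, 2.10 and 1.79, and MLPH-CKO overlapped Non-target at 2.58, 3.35 and 2.82. It rose by 1.11 ± 0.21 in RHBDD2-CKO (limma, adjusted p = 0.00138) and by 0.84 ± 0.21 in MAGI2-CKO (limma, adjusted p = 0.00699). The fall of 0.66 ± 0.21 in C9orf89-CKO (limma, adjusted p = 0.0339) was lost without C9orf89-CKO well 1 or any 1 of the Non-target wells (adjusted p of up to 0.127, limma). HIST1H2BJ stood at 2.30, 2.38 and 3.3 FPKM in Non-target and at 5.91, 4.60 and 6.21 in RHBDD2-CKO, where it rose by 1.05 ± 0.25 (limma, adjusted p = 0.00647). In MLPH-CKO, at 1.79, 1.51 and 0.861 FPKM, it fell by 0.93 ± 0.25 (limma, adjusted p = 0.0140), lost without MLPH-CKO well 3 or Non-target well 3 (adjusted p of up to 0.0634, limma). That call was also lost when only the 6 libraries of both groups were fitted.

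HIST2H2BE, from the HIST2 cluster on chromosome 1, was called in MAGI2-CKO alone among the 4 comparisons. It was at 3.17, 2.44 and 3.13 FPKM there against 1.19, 1.21 and 0.883 in Non-target, and rose by 1.34 ± 0.21 (limma, adjusted p = 0.000318). RHBDD2-CKO, at 0.853, 1.21 and 1.12 FPKM, overlapped Non-target for this gene. The difference between MAGI2-CKO and Non-target was the only one past the threshold between neighbours in the order of its means. HIST3H2BB, a neighbour of HIST3H2A that was named after its values were seen, also rose in MAGI2-CKO, by 0.91 ± 0.32 (limma, adjusted p = 0.0387), and lost that call when any of 5 libraries was left out (adjusted p of up to 0.120, limma), namely the 3 wells of MAGI2-CKO and Non-target wells 2 and 3.

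H3 and H4 form the central tetramer of the core, and the tail of H3 carries many of the marks by which chromatin is read. HIST1H3E was at 0.814, 1.13 and 0.638 FPKM in Non-target and at 2.57, 3.28 and 3.46 in RHBDD2-CKO. The remaining clones lay between 0.475 and 1.27 FPKM, so RHBDD2-CKO was apart from all. It rose by 1.76 ± 0.22 in RHBDD2-CKO (limma, adjusted p = 7.34e-05), and no neighbouring pair further down the order differed past the threshold. HIST1H3H rose by 1.18 ± 0.36 in RHBDD2-CKO (limma, adjusted p = 0.0234), at 2.49, 2.15 and 2.88 FPKM against 0.705, 1.15 and 1.38 in Non-target, and lost the call without Non-target well 1 or RHBDD2-CKO well 1 or 3 (adjusted p of up to 0.0876, limma). In MAGI2-CKO it was at 2.29, 2.25 and 2.03 FPKM and rose by 1.00 ± 0.36 (limma, adjusted p = 0.0463), but the call was lost when any of 11 libraries was left out (adjusted p of up to 0.163, limma), all of them but the 3 wells of C9orf89-CKO and Non-target well 3. HIST1H3J, named after its values were seen, fell by 1.84 ± 0.53 in RHBDD2-CKO (limma, adjusted p = 0.0172) on 0 to 3 fragments per well there and 3 to 12 in Non-target, with overlapping wells, and lost the call without Non-target well 1 or 2 or RHBDD2-CKO well 2 (adjusted p of up to 0.0757, limma). It overlaps HIST1H2AM.

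HIST1H4I was the H4 gene with the most RNA per length and the only H4 gene called in any clone. It was at 8.52, 9.68 and 8.41 FPKM in Non-target, 18.7, 18.3 and 18.6 in RHBDD2-CKO and 12.4, 10.8 and 12.3 in MAGI2-CKO. It was at 4.63, 5.66 and 5.05 FPKM in C9orf89-CKO and 7.75, 6.40 and 5.31 in MLPH-CKO. Each clone was clear of Non-target, on the same side as for HIST1H2BK. It rose by 1.06 ± 0.12 in RHBDD2-CKO (limma, adjusted p = 2.56e-05) and by 0.41 ± 0.12 in MAGI2-CKO (limma, adjusted p = 0.0164), and it fell by 0.78 ± 0.12 in C9orf89-CKO (limma, adjusted p = 0.000376) and by 0.46 ± 0.12 in MLPH-CKO (limma, adjusted p = 0.0104). The rise in MAGI2-CKO was lost without MAGI2-CKO well 1 or 3 or Non-target well 3 (adjusted p of up to 0.0595, limma), and the fall in MLPH-CKO when only the 6 libraries of both groups were fitted (adjusted p = 0.0754, limma).

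The promoters of the 4 abundant genes are given because 3 of these genes were called in every clone. They are the 300 bases from 250 before to 50 after the start in RefSeq (GRCh38.p14), 5′ to 3′ along the gene. Of the 71 genes, 66 were matched to RefSeq by older symbol and 61 were matched to a promoter. Capitals mark matches on either strand, and those that touch or overlap run together. The motifs searched were the TATA box, taken as the letters TATAAA, and the box of that name spelled CCAAT. To these were added the octamer of histone promoters, taken as ATTTGCAT, and the H1 box, taken as AAACACA.
HIST1H2BK (chr6:27146809-27147108, minus strand): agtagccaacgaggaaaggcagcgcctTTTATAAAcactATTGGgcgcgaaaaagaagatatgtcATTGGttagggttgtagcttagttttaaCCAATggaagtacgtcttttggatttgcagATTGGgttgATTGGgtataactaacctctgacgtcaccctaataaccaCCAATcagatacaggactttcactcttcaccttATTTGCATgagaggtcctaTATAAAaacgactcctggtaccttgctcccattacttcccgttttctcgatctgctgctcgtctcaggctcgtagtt
HIST1H1C (chr6:26056421-26056720, minus strand): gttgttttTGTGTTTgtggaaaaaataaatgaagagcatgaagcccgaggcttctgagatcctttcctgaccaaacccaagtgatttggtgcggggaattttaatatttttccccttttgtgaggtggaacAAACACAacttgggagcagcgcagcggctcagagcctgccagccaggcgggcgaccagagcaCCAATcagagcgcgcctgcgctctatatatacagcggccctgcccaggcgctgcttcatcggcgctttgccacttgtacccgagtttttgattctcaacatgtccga
HIST1H4I (chr6:27139032-27139331, plus strand): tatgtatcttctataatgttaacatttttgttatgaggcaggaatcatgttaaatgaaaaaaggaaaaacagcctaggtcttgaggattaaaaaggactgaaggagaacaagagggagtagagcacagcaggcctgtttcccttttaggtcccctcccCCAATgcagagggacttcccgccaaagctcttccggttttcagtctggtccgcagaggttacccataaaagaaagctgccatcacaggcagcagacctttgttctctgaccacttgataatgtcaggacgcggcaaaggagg
HIST3H2A (chr1:228457824-228458123, minus strand): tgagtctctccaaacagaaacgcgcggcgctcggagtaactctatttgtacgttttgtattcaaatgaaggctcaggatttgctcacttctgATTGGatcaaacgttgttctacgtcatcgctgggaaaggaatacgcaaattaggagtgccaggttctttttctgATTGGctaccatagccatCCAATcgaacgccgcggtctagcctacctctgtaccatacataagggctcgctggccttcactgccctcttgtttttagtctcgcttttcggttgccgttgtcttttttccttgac
The HIST1H2BK window held the TATA box, CCAAT and octamer letters, and that of HIST1H1C held CCAAT and H1 box letters. In the windows of HIST1H4I and HIST3H2A the only match of the 4 was CCAAT. Over the 61 histone promoters, TATAAA was in 67.2% against 12% of 27305 RefSeq promoters, CCAAT in 83.6% against 35.7%, ATTTGCAT in 34.4% against 1.80% and AAACACA in 14.8% against 5.76%. The families differed, with AAACACA in 100% of the 6 H1 promoters, ATTTGCAT in 68.8% of H2A and 69.2% of H2B promoters, and CCAAT in 23.1% of H4 promoters but 100% of the others. A match describes the letters only.

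Of the 71 genes, 55 lie in the HIST1 cluster (chr6:25726132-27893843), 12 in HIST2 on chromosome 1 (chr1:143905556-149887916), 3 in HIST3 and 1 in HIST4. The HIST1 genes fall into a first stretch of 34 genes (chr6:25726132-26285638) and a second of 21 (chr6:27125897-27893843), 0.84 Mb apart. In RHBDD2-CKO, 4 of 12 tested genes of the first stretch rose and 0 fell, and 6 of 14 of the second rose and 2 fell, where 17.4% of all genes tested rose and 16.7% fell. In MAGI2-CKO 2 and 5 rose, beside 17.0% of all genes. HIST1H2BN among the 6 and HIST1H1B among the 5 are the genes that passed the filter through the clone where they were high, which leaves 5 and 4 without them. In C9orf89-CKO 3 and 2 fell, beside 13.1%, and the 1 rise in MLPH-CKO, HIST1H1C, came from the first stretch. The 12 tested protein-coding genes within the span of HIST1 that are not histone genes gave 8 rises and 0 falls in RHBDD2-CKO, with a median log2 difference of 0.41, or 66.7% called beside 34.1% of all genes tested. In the other clones they gave 3 rises and 6 falls in C9orf89-CKO, 1 and 6 in MAGI2-CKO and 2 and 5 in MLPH-CKO, with medians of -0.28, -0.31 and -0.20. Their shares called were 75%, 58.3% and 58.3% in that order, beside 26.0%, 36.1% and 30.1% of all genes.

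Among those neighbours, BTN3A1, a butyrophilin of immune recognition, was at 1.38, 1.63 and 1.49 FPKM in Non-target and at 2.80, 3.02 and 3.00 in RHBDD2-CKO (log2 difference 0.93 ± 0.10, limma, adjusted p = 1.69e-05). HMGN4, a nucleosome-binding protein, fell by 0.51 ± 0.07 in C9orf89-CKO (limma, adjusted p = 0.000284), from 51.8, 54.4 and 52.2 FPKM to 36.3, 38.4 and 36.4. BTN3A3, another butyrophilin, showed the largest rise among the neighbours in the other 3 clones, by 0.80 ± 0.21 in MAGI2-CKO, 0.96 ± 0.21 in C9orf89-CKO and 0.80 ± 0.21 in MLPH-CKO, the last lost without Non-target well 2 (adjusted p = 0.0506, limma). TRIM38, a ubiquitin ligase, fell by 0.63 ± 0.16 in MAGI2-CKO. The zinc finger gene ZNF391 was called in all 4 clones, from a fall of 0.86 ± 0.15 in MLPH-CKO (limma, adjusted p = 0.000859) to a rise of 0.56 ± 0.15 in RHBDD2-CKO (limma, adjusted p = 0.0109, and 0.0537 without Non-target well 2). The span of HIST2 begins at HIST2H3PS2 (chr1:143905556-143905966), whereas its other histone genes start at chr1:149782689 or beyond. Its neighbours were all other protein-coding genes in that wide span, so they need not lie close to a histone gene. The 27 tested gave 1 rise and 3 falls in RHBDD2-CKO and 3 of each in MAGI2-CKO, or 14.8% and 22.2% called beside 34.1% and 36.1% of all genes. They gave 3 rises and 7 falls in MLPH-CKO (37.0% beside 30.1%) and 3 rises and 2 falls in C9orf89-CKO (18.5% beside 26.0%). NUDT17, of the Nudix hydrolase family, rose in all 4 clones, by 0.53 to 0.87, but in RHBDD2-CKO not without Non-target well 1 or RHBDD2-CKO well 3 (adjusted p of up to 0.0755, limma). ANKRD34A, an ankyrin repeat gene, rose by 0.94 ± 0.13 in MAGI2-CKO, where TXNIP, an inhibitor of thioredoxin, fell by 0.60 ± 0.10. CHD1L, a chromatin remodeller, fell by 0.36 ± 0.09 in RHBDD2-CKO, and NBPF15 by 0.33 ± 0.09 in C9orf89-CKO, the latter lost without C9orf89-CKO well 3 or Non-target well 1 (adjusted p of up to 0.0799, limma). GPR89B, whose near-identical copy GPR89A makes its counts uncertain, had the largest fall in MLPH-CKO, 1.18 ± 0.41, a call lost in 11 of the 15 fits without 1 library. Whether histone genes and neighbours moved together for a shared reason was not tested.

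**Figure D4:**
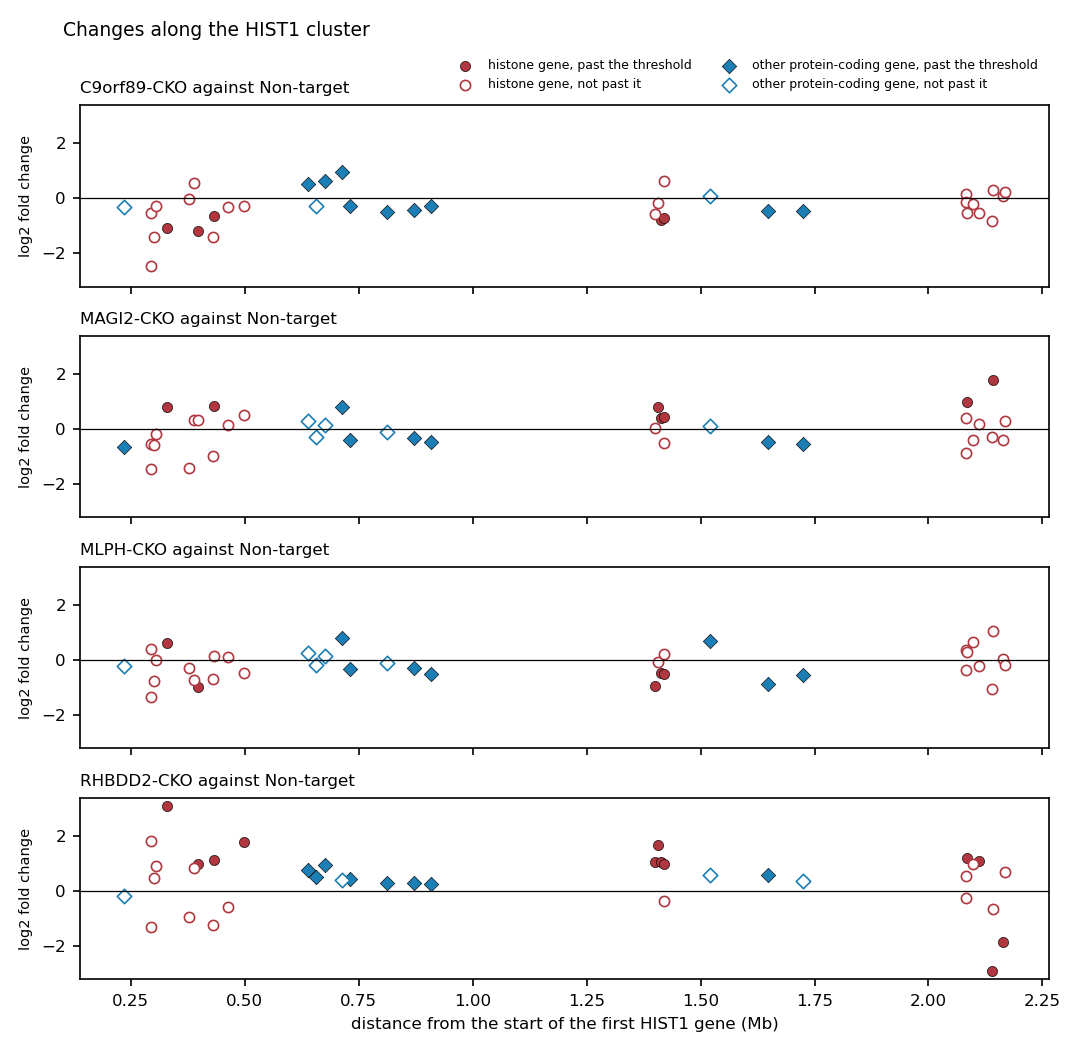
Log2 difference in FPKM + 0.1 from Non-target in each CKO clone for tested genes of the HIST1 cluster, against distance in Mb from the start of its first histone gene, with histone and other protein-coding genes in different symbols and filled symbols for genes past the threshold. In RHBDD2-CKO 10 histone genes and 8 neighbours were called higher, and most tested neighbours lie in the gap of 0.84 Mb between the histone stretches.

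By class of gene model, the 10 tested genes whose exons run over 100 bases past the stem-loop gave 6 rises and 0 falls in MAGI2-CKO and 6 rises and 0 falls in RHBDD2-CKO, with median log2 differences of 0.65 and 1.01, where 17.0% and 17.4% of all genes tested rose. One of those 6 in RHBDD2-CKO is HIST1H2BN, which passed the filter through that clone alone. They gave 3 falls in C9orf89-CKO and 2 in MLPH-CKO, with no rise, beside 13.1% and 15.5% of all genes that fell. The 16 tested genes with no stem-loop in the model gave 3 rises and 0 falls in MAGI2-CKO and 3 rises and 2 falls in RHBDD2-CKO, with medians of -0.23 and -0.37. HIST1H1B, which passed the filter mainly through MAGI2-CKO, is among the 3 rises of that clone. The 6 tested genes placed in the class that ends near the stem-loop gave 1 rise in each of these clones. Both rises were of HIST1H2BD, whose gene is annotated to run on far past the stem-loop. HIST1H1C and HIST1H2BK, with rises in both, belong to the class with no stem-loop, so the calls were not limited to long models, and the difference between classes was not tested.

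Libraries numbered 1 differed from the others across the transcriptome, so the histone genes were also compared by well number. In libraries numbered 1, 2 of the 32 differed from numbers 2 and 3, both lower, where 27.7% of all genes tested were called (12.5% higher, 15.3% lower). HIST3H2A differed by -0.23 ± 0.07 (limma, adjusted p = 0.0363) and was the lowest of the 3 wells in 4 of 5 groups, at 0.898 of the group mean, and the call was lost when any of 7 libraries was left out (adjusted p of up to 0.0830, limma), namely wells 1 and 3 of Non-target and of MAGI2-CKO, MLPH-CKO well 3 and RHBDD2-CKO wells 1 and 2. HIST1H4J, named after its values were seen, differed by -1.19 ± 0.29 (limma, adjusted p = 0.0105) on 1 to 13 fragments per library, and its model shares 77.7% of its 100-base windows with HIST1H4K. For numbers 2 and 3 there were 0 calls among the histone genes by limma, with 4 at an unadjusted p under 0.05 for each, beside 3.11% and 4.98% of all genes called.

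Against the group means, the summed histone FPKM averaged 0.971, 0.984 and 1.04 in wells 1, 2 and 3 of the 5 groups, with single ratios from 0.889 to 1.21, and it was highest in well 3 in 4 of 5 groups. A list of 9 other RNAs known to lack a poly(A) tail in full or in part was set beside them. RN7SL2, an RNA of the signal recognition particle, averaged 1.86, 0.466 and 0.671 of the group mean, and was highest in well 1 in 5 of 5 groups. NEAT1, the RNA scaffold of paraspeckles, averaged 1.35, 0.839 and 0.813, highest in well 1 in 5 of 5, and MALAT1, a nuclear RNA, 1.24, 0.870 and 0.893, highest in well 1 in 4 of 5. These 3 were the only ones of the 9 that passed the filter, and all 3 were called higher in libraries numbered 1. Between groups, the 9 summed to 531 ± 235 FPKM in Non-target, 363 ± 194 in MAGI2-CKO, 413 ± 475 in MLPH-CKO, 142 ± 90.1 in C9orf89-CKO and 78.5 ± 85.6 in RHBDD2-CKO (SD, n = 3). RN7SL2 made up most of this sum in every library, from 795 of 799 FPKM in Non-target well 1 to 24.4 of 26.6 in RHBDD2-CKO well 3. NEAT1 was called lower in RHBDD2-CKO, by limma, with a log2 difference of -2.23, and so was RN7SL2, with -3.31 (adjusted p = 0.0121, and 0.0545 without RHBDD2-CKO well 3), while MALAT1 differed by 0.39 and was not called. NEAT1 was also called lower in MLPH-CKO, with -1.88, and in C9orf89-CKO, with -1.13, a call lost without C9orf89-CKO well 2 or 3 or Non-target well 1, and MALAT1 was called higher in MAGI2-CKO, with 0.81, a call lost without MAGI2-CKO well 1 or 2 or Non-target well 2 or 3. Genes annotated as snoRNA or snRNA, classes that also lack such tails, did not follow the order of the summed 9, which is mainly that of RN7SL2. The snoRNA genes summed to 183 to 251 FPKM in Non-target, 325 to 375 for RHBDD2-CKO, 368 to 460 for MAGI2-CKO, 288 to 323 for MLPH-CKO and 214 to 363 for C9orf89-CKO, and the snRNA genes to 62.7 to 101, 114 to 148, 113 to 144, 112 in each well and 99.1 to 138 FPKM in the same order. Both sums were above every Non-target well in RHBDD2-CKO, MAGI2-CKO and MLPH-CKO, and overlapped Non-target in C9orf89-CKO. The part of these differences in the histone values was not tested.

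**Figure D5:**
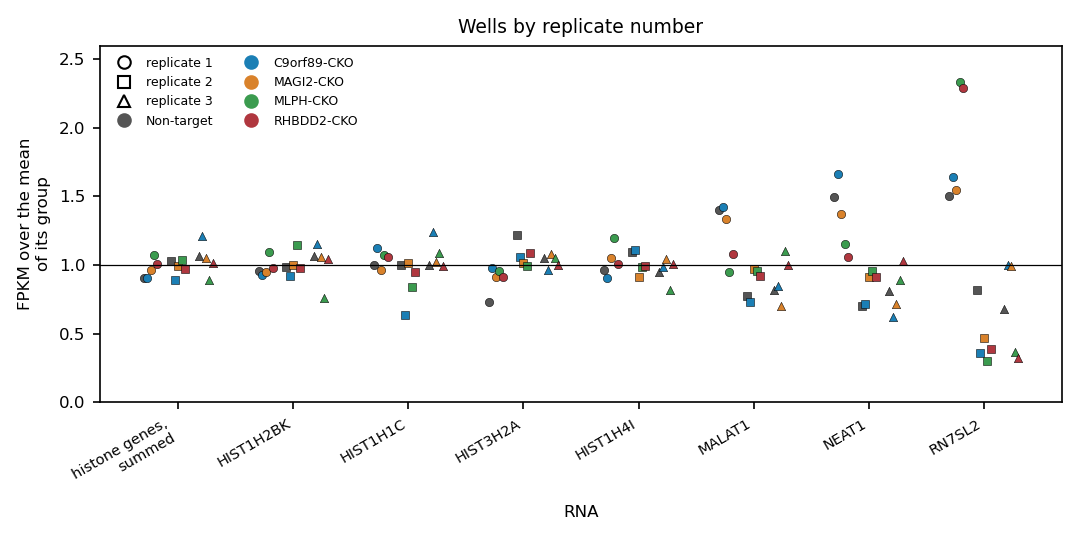
FPKM divided by the group mean, by well number, for the summed histone genes, 4 abundant histone genes, and RN7SL2, MALAT1 and NEAT1, with a point for each of the 5 groups. RN7SL2 averages 1.86 of the group mean in well 1, whereas the histone sum averages 0.971, 0.984 and 1.04 in wells 1, 2 and 3.

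The genes that make histone mRNA changed in both directions. NPAT, the coactivator of histone transcription, was at 4.10, 3.57 and 3.91 FPKM in Non-target and at 5.61, 6.33 and 6.21 in RHBDD2-CKO. It was at 2.15, 2.42 and 1.77 in MAGI2-CKO, 2.52, 3.15 and 3.06 in MLPH-CKO and 3.32, 3.26 and 3.18 in C9orf89-CKO. All clones lay outside the range of Non-target, above it in RHBDD2-CKO and below it in the others. NPAT rose by 0.64 ± 0.11 in RHBDD2-CKO (limma, adjusted p = 0.000925) and fell by 0.85 ± 0.11 in MAGI2-CKO (limma, adjusted p = 8.03e-05) and by 0.40 ± 0.11 in MLPH-CKO (limma, adjusted p = 0.0170, and up to 0.0674 without MLPH-CKO well 1 or Non-target well 1 or 3). In C9orf89-CKO it differed by -0.24 ± 0.11 (limma, adjusted p = 0.144). By their wells, RHBDD2-CKO was above Non-target in both NPAT and the histone sum, and C9orf89-CKO below in both. MAGI2-CKO was above it in the histone sum and below it in NPAT. MLPH-CKO was below it in NPAT and overlapped it in the histone sum. A link between NPAT and the histone sum was not tested.

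Over the 24 genes of that list, 7 rose and 5 fell in RHBDD2-CKO, 3 and 8 in MAGI2-CKO, 2 and 5 in MLPH-CKO, and 3 and 4 in C9orf89-CKO. That is 50%, 45.8%, 29.2% and 29.2% called, beside 34.1%, 36.1%, 30.1% and 26.0% of all genes tested. SLBP, the stem-loop binding protein, lay between means of 57.7 and 72.7 FPKM and fell only in MAGI2-CKO among the 4 comparisons, by 0.27 ± 0.06 (limma, adjusted p = 0.00575). CASP8AP2 (FLASH), a factor of histone pre-mRNA cleavage, rose by 0.34 ± 0.08 in RHBDD2-CKO (limma, adjusted p = 0.00697). CPSF2, a subunit of the cleavage complex, rose by 0.63 ± 0.07 in MAGI2-CKO, and MIF4GD (SLIP1), a partner of SLBP, by 0.82 ± 0.12 in MLPH-CKO. HINFP, a transcription factor of H4 genes, rose by 0.46 ± 0.11 in RHBDD2-CKO and by 0.32 ± 0.11 in C9orf89-CKO, the latter lost in 10 of the 15 fits without 1 library (adjusted p of up to 0.163, limma). CDK9, a kinase of transcription elongation, and NCBP1, of the cap-binding complex, fell in all 4 clones, by 0.39 to 0.55 and by 0.23 to 0.33. NELFB and CCNE1 also passed the threshold downwards in all 4, and CDK2, the partner of cyclin E, upwards, but each lost the call in at least 1 clone when some library was left out, with adjusted p-values of up to 0.159, 0.120 and 0.124 in that order (limma). Of the 7 genes of histone mRNA decay, 4 rose and 1 fell in RHBDD2-CKO, 2 and 1 in MAGI2-CKO, 3 and 1 in MLPH-CKO and likewise 3 and 1 for C9orf89-CKO, or 71.4%, 42.9%, 57.1% and 57.1% called beside the shares of all genes just given. EXOSC10, a nuclease of the nuclear exosome, rose by 0.63 to 0.80 and TUT7, a uridylyltransferase, by 0.44 to 0.62 in all 4 clones, the latter with losses in MAGI2-CKO and MLPH-CKO when some library was left out (adjusted p of up to 0.139, limma). UPF1, a helicase recruited to histone mRNA for decay, fell in 3, with the call in MAGI2-CKO lost without MAGI2-CKO well 1 or Non-target well 2. In RHBDD2-CKO the fall was that of XRN1, an exonuclease, by 0.34 ± 0.08 (limma, adjusted p = 0.00572). ERI1 rose by 0.24 ± 0.08 in RHBDD2-CKO (limma, adjusted p = 0.0253, and up to 0.102 without RHBDD2-CKO well 1 or Non-target well 1 or 3).

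Other histone genes, outside these families of symbols, give polyadenylated mRNA and supply variants also outside S phase. Of the 11 tested, 0 rose and 4 fell in RHBDD2-CKO, 1 and 4 in MAGI2-CKO, 1 and 4 in MLPH-CKO, and 0 and 1 in C9orf89-CKO, or 36.4%, 45.5%, 45.5% and 9.09% called beside the same shares of all genes. H1FX, a linker histone outside the clusters, fell by 1.15 ± 0.15 in RHBDD2-CKO (limma, adjusted p = 8.67e-05), from 178 ± 27.9 to 80.7 ± 16.4 FPKM (SD, n = 3), in the clone where HIST1H1C rose most. H2AFJ, an H2A variant, fell in all 4 clones, by 0.47 to 1.07, with losses in MAGI2-CKO and MLPH-CKO when some library was left out (adjusted p of up to 0.0924, limma). H2AFZ (H2A.Z) fell by 0.54 ± 0.10 in MLPH-CKO (limma, adjusted p = 0.00120), and H3F3B (H3.3) rose by 0.27 ± 0.06 in MAGI2-CKO (limma, adjusted p = 0.00485), while H3F3A was called in no clone. H2AFX, which gives both tailed and untailed mRNA, was at 179.7 ± 34.8 FPKM in Non-target and 119.8 ± 17.3 in MLPH-CKO (limma, adjusted p = 0.0381, and up to 0.143 when any well of MLPH-CKO, Non-target well 2 or 3, or MAGI2-CKO well 2 was left out).

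Of 24 genes of S phase, such as replication enzymes and licensing factors, 3 rose and 4 fell in RHBDD2-CKO, 1 and 5 in MAGI2-CKO, 1 and 9 in MLPH-CKO, and 0 and 6 in C9orf89-CKO. The shares called, 29.2%, 25%, 41.7% and 25%, stand beside 34.1%, 36.1%, 30.1% and 26.0% of all genes, so that of MLPH-CKO alone was above it. TYMS, which makes thymidylate, fell in all 4 clones, by 0.28 to 0.46, and lost the call in MAGI2-CKO when some library was left out (adjusted p of up to 0.124, limma). POLE2, a subunit of DNA polymerase epsilon, rose by 0.68 ± 0.10 in MAGI2-CKO and by 0.34 ± 0.10 in MLPH-CKO, the latter lost without MLPH-CKO well 1 or 2 or Non-target well 1 or 3 (adjusted p of up to 0.0714, limma). CLSPN, which encodes claspin of the replication checkpoint, rose by 0.41 ± 0.13 in RHBDD2-CKO, lost without Non-target well 2 or RHBDD2-CKO well 1 or 3 (adjusted p of up to 0.105, limma). MCM2, part of the replicative helicase, fell by 0.89 ± 0.07 in RHBDD2-CKO (limma, adjusted p = 2.26e-06), MCM7 by 0.56 ± 0.06 in MAGI2-CKO (limma, adjusted p = 1.95e-05), and the cyclin gene CCNA2 by 0.57 ± 0.06 in MLPH-CKO (limma, adjusted p = 2.79e-05). Of 19 histone chaperones, which escort histones to DNA, 6 rose and 1 fell in RHBDD2-CKO, 4 and 1 in MAGI2-CKO, 2 and 3 in MLPH-CKO, and 1 and 0 in C9orf89-CKO, and ASF1B, a chaperone of H3 and H4, rose by 0.49 to 0.66 in every clone but RHBDD2-CKO. Of the chaperones 36.8%, 26.3%, 26.3% and 5.26% were called in that order of clones. ASF1A, also a chaperone of H3 and H4, fell by 0.35 ± 0.06 in MLPH-CKO. DAXX, a chaperone of H3.3, fell by 0.19 ± 0.06 in RHBDD2-CKO, and RBBP7, which binds H4, by 0.19 ± 0.07 in MAGI2-CKO, with adjusted p-values of up to 0.0822 and 0.116 when some library was left out (limma). IPO4, an importin of histones, had the largest rise in RHBDD2-CKO, 1.28 ± 0.44 on a mean of 0.324 FPKM over all libraries, lost without RHBDD2-CKO well 2 or 3 or Non-target well 1 or 2, and it passed the filter through those 2 wells of RHBDD2-CKO and 1 of MLPH-CKO. Of 127 tested snRNA genes, 10 rose and 1 fell in MAGI2-CKO, 8 and 0 in RHBDD2-CKO, 2 and 0 in C9orf89-CKO and 3 and 0 in MLPH-CKO, or 8.66%, 6.30%, 1.57% and 2.36% called, and 23 of 119 tested snoRNA genes rose and 2 fell in MAGI2-CKO, and 15 and 0 in RHBDD2-CKO, with 9 and 0 in C9orf89-CKO and 11 and 1 in MLPH-CKO. The shares of the snoRNA genes called, 21%, 12.6%, 7.56% and 10.1% in that order, were like those of the snRNA genes below the 36.1%, 34.1%, 26.0% and 30.1% of all genes.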

How the data were processed

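RNA of 15 wells (5 groups of 3) was analysed. The authors deposited 1 column per library for 58735 Ensembl genes; the unit, FPKM, is not given in the sources used here and was worked out, since each deposited FPKM value times the merged exon length of GENCODE 29 was a whole multiple (within 0.05) of 1 step per library. That gave fragments per gene, used for depths and for voom. The submitters' processing notes name HISAT2 2.0.5, featureCounts 1.5.0-p3 and DESeq2; the build, strand setting and poly(A) selection are not given in the sources used here.

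The test took the 16175 genes that reached 0.5 FPKM in 3 or more libraries and ran on log2(FPKM + 0.1) with limma 3.58.1 in R 4.3.3, with a variance trend, group as the only term and Benjamini-Hochberg adjustment over all of them. A log2 difference on that scale understates the change of low genes. Well numbers were compared in a fit with group and number. Tables and plots used Python 3.11.15, numpy 2.4.6, pandas 2.3.3 and matplotlib 3.10.9.

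The step was tested on data simulated for RHBDD2-CKO against Non-target. Over 15732 genes, 124 of 200 genes changed 2-fold were called (62.0%), with 107 of 124 recovered at 2 FPKM or more and 17 of 76 below, a range in which most histone genes lie, and 7 unchanged genes were called.

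The histone genes and the lists were chosen with earlier results of these data known. Genes named were the 8 with the highest mean, and per clone the 4 largest rises and 4 largest falls past the threshold. Those rises and falls had no overlap with Non-target and a mean of at least 1 FPKM. The same was done by well number without the overlap condition. Genes called the same way in all 4 clones were also named, as were, per list, the largest rise and fall in each clone. SLBP, NPAT, CASP8AP2, ERI1, H2AFX, H2AFZ, H3F3A and H3F3B were named in any case. Others are said to be chosen after their values were seen, apart from the targeted genes, the markers of cell lines and HIST1H1E, the remaining tested H1 gene. Alternatives were pseudocounts of 1 and 0.01, no filter, a mean of at least 1 FPKM, quantile normalization, no trend, voom weights, only the 6 libraries of 2 groups, a replicate block, and leaving out each library. The summed level of the HEK293T markers is not reported here.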

Additional observations from a re-analysis of the deposited data

Results flagged for a closer look

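Members of the histone set that passed the threshold upwards in 1 clone and downwards in another were looked at again through the direct difference between those clones, by limma on the log2 scale. For HIST1H1C, lower than Non-target in C9orf89-CKO, the difference from C9orf89-CKO was 4.16 for RHBDD2-CKO, 1.89 for MAGI2-CKO and 1.73 for MLPH-CKO. For HIST1H2BK, MAGI2-CKO was higher by 1.17 than C9orf89-CKO and by 0.96 than MLPH-CKO, and RHBDD2-CKO by 1.68 and 1.47. HIST1H4I gave 1.19 and 0.87 for MAGI2-CKO and 1.84 and 1.52 for RHBDD2-CKO against the same 2 clones. RHBDD2-CKO exceeded C9orf89-CKO by 2.16 and MLPH-CKO by 1.94 for HIST1H2AC, and MLPH-CKO by 1.98 for HIST1H2BJ. HIST1H2BD was higher than in C9orf89-CKO by 1.5 in MAGI2-CKO and 1.77 in RHBDD2-CKO, and HIST3H2A was higher in MAGI2-CKO by 1.84. Their causes were not tested.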

How the results depend on the processing

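Of 1248 recomputed fold changes of named histone genes, 1185 kept their direction and their side of the threshold, 57 lost and 6 gained a call, and 0 that had been called turned their sign. Leaving out 1 library gave 5 to 11 calls in MAGI2-CKO (5 without MAGI2-CKO well 3, 6 without Non-target well 3; 10 with all) beside 29.4% to 36.9% of all genes, 3 to 5 in MLPH-CKO (3 without Non-target well 3 or MLPH-CKO well 3; 5 with all) beside 24% to 31.1%, 2 to 5 for MLPH-CKO against C9orf89-CKO (5 without C9orf89-CKO well 3; 3 with all) beside 9.63% to 14.6%, and 1 to 4 for wells numbered 1 (2 with all) beside 21.6% to 28.3%. The 4 came without C9orf89-CKO well 3 or MLPH-CKO well 1, and the 1 without MAGI2-CKO well 1 or 3, Non-target well 1 or 3, or RHBDD2-CKO well 2. With only the 6 libraries of both groups, 1 call was left in MLPH-CKO, a fit with fewer samples in which 22.1% of all genes were called (30.1% with all). At a mean of at least 1 FPKM, which leaves 19 histone genes, RHBDD2-CKO against MAGI2-CKO gave 9 of 19 in place of 15 of 32, beside 46.3% of all genes in place of 41.6%. Calls in wells numbered 1 went from 2 to 1 with no filter (27.7% to 11.5% of all genes, with 32715 tested) and to 1 without the trend (26.3%), and wells numbered 2 and 3 gave 0 and 0. Without HIST1H2BK the sums were 83.4 FPKM in Non-target, 213 for RHBDD2-CKO, 137 for MAGI2-CKO, 91.3 for MLPH-CKO and 59.9 for C9orf89-CKO. MLPH-CKO was then above Non-target by its mean, whereas with HIST1H2BK it was below. With libraries rescaled to the same total RHBDD2-CKO stood at 417 in place of 384.

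Same-numbered wells of different groups had a median correlation of deviations from the group means of 0.0856 over 30 pairs, with 12 above 0.1. All 10 pairs of wells numbered 1 were above 0.1 (median 0.212, lowest 0.128), as were 1 of 10 for each other number and 2 of 60 pairs with different numbers (median -0.0887). Pairing was taken only where every pair passed 0.1, so the numbers were not taken to pair the samples. With the well number as a replicate block, 14 histone genes were called in RHBDD2-CKO, 11 in MAGI2-CKO, 7 in C9orf89-CKO and 6 in MLPH-CKO, beside 43.5%, 44.3%, 35.4% and 38.9% of all genes, 19 differed among groups, beside 71.9%, and the pairs of clones gave 12 (MAGI2 with C9orf89), 3 (MLPH with C9orf89), 15 (RHBDD2 with C9orf89), 10 (MLPH with MAGI2), 16 (RHBDD2 with MAGI2) and 14 (RHBDD2 with MLPH), beside 31.5%, 22.5%, 37.7%, 29.4%, 49.9% and 45.2% of all genes in that order. The low fragment numbers of most histone genes limit what these libraries can show.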
